A study of Mus musculus with 36 samples.

Results

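Liver and epididymal white adipose tissue (eWAT, the fat pad beside the epididymis) of the group named HFLF were set against each other by their microRNAs (miRNAs). The comparison used 12 of the 36 libraries of the series, 6 of liver and 6 of eWAT, chosen by tissue and group label alone, and every miRNA was eligible. The mice were C57BL/6 wild type males of the F1 generation, aged 24 weeks, which ate chow to 6 weeks of age and then a test diet for 18 weeks. The other 24 libraries came from both tissues of the groups LF and HF and entered only the comparisons of tissue differences between groups. The diet tag of the HFLF libraries is HFLFD, while the treatment text carried by all samples names LFD, so what the mice of a group ate cannot be told from the labels and the group is called by its name. The labels do not say whether replicates are separate mice, nor whether liver and eWAT libraries of one number share a mouse; p-values here rest on the spread between libraries, which may be technical.

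A miRNA gene is copied into a hairpin, which the enzymes Drosha and Dicer cut into a short duplex with a strand from each arm, named 5p and 3p. A strand loaded into an Argonaute protein pairs with messenger RNAs mainly through its seed, bases 2 to 8 from the 5′ end, and lowers their translation and stability. Hepatocytes are known for very high levels of miR-122, and adipose tissue, with its many vessel and stromal cells, for the miR-143 and miR-145 cluster.

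The sequences below carry the main differences between the tissues and are RefSeq mature sequences, written 5′ to 3′ with the seed in capitals (GRCm38.p6). The first set holds miRNAs higher in liver, some with a relative of the same or a shifted seed.
miR-192-5p: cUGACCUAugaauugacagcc
miR-215-5p: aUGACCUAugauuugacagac
miR-194-5p: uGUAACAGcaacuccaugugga
miR-802-5p: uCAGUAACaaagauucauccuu
miR-148a-3p: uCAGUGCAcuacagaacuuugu
miR-152-3p: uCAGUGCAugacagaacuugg
miR-101a-3p: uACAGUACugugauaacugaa
miR-101b-3p: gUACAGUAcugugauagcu
The second set holds miRNAs higher in eWAT, and miR-28a-5p, higher in liver, beside its seed partner miR-708-5p.
miR-10a-5p: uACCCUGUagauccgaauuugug
miR-10b-5p: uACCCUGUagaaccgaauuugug
miR-196a-5p: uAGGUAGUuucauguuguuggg
miR-615-3p: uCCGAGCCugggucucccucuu
miR-708-5p: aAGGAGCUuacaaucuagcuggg
miR-28a-5p: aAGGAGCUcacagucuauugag
miR-379-5p: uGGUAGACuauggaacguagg
miR-411-5p: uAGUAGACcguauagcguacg
The third set holds pairs that share a seed and lay on opposite sides of the comparison on its main scale, described below.
miR-27a-3p: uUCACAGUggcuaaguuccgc
miR-27b-3p: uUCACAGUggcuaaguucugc
miR-103-3p: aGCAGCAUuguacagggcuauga
miR-107-3p: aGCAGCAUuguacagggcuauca
let-7g-5p: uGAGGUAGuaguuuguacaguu
let-7i-5p: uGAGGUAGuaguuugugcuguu

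Liver libraries held 9198584 to 18152684 counts and eWAT libraries 13103448 to 17714156, over 1 line per mature miRNA. The table lists 1966 mature miRNAs, of which 1171 had a count in these libraries and 521 passed the filter on low counts. Fewer miRNAs were seen in liver, 544 to 633 with a count per library, than in eWAT, with 755 to 794. However, miR-122-5p took 45.6% to 55.4% of a liver library and 0.0722% to 0.309% of an eWAT library. Liver libraries thus had fewer counts left for other miRNAs, and the numbers seen were not compared at equal depth. They do not show that liver holds fewer miRNAs. Liver counts were also more concentrated: the 10 leading miRNAs held 78.2% to 83.3% of a liver library and 63.2% to 65.6% of an eWAT library, and 18 to 23 miRNAs made up 90% of the counts in liver against 35 to 38 in eWAT. The first principal component carried 77.9% of the variance and separated all 6 liver libraries from all 6 eWAT libraries. On the second, with 4.83%, liver replicate 1 stood at 22.3 and the other liver libraries between -9.59 and 4.00; without it 80 miRNAs past a log2 fold of 1 were higher in liver and 134 in eWAT, where all 12 libraries gave 75 and 114. Both tissues carried their own markers: miR-122-5p, miR-192-5p, miR-194-5p and miR-802-5p were high in every liver library, and miR-143-3p and miR-10b-5p in every eWAT library.

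Of the 521 miRNAs tested, 333 differed between the tissues, which is 63.9% (edgeR quasi-likelihood test, Benjamini-Hochberg adjusted p under 0.05). Those higher in liver numbered 153 (29.4%) and those higher in eWAT 180 (34.5%), and 188 were not called. Past a fold of 2, tested as a log2 fold of 1, the counts were 75 higher in liver (14.4%) and 114 higher in eWAT (21.9%). The median log2 fold change over all 521 was -0.14 and the median size of a change 1.16. The 6 liver libraries lay wholly above the 6 eWAT libraries for 114 miRNAs (21.9%) and wholly below for 146 (28%). These values use counts per 1000000 (CPM) scaled by TMM, a factor that sets most miRNAs level between libraries. miR-122-5p filled much of each liver library, and the factors were 0.592 to 0.713 in liver and 1.38 to 1.57 in eWAT, and a scaled CPM is not a share of the library. On plain totals the fold changes moved towards eWAT, with the median at -1.32, a shift of -1.18, and 57 miRNAs called higher in liver and 334 in eWAT. All 57 were among the 153, and all 180 miRNAs higher in eWAT kept their call and direction on plain totals; of the rest of the 153, 63 lost the call and 33 were called higher in eWAT. Which scale gives the true amounts per cell cannot be told from sequencing counts without a spike-in.

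**Figure D1:**
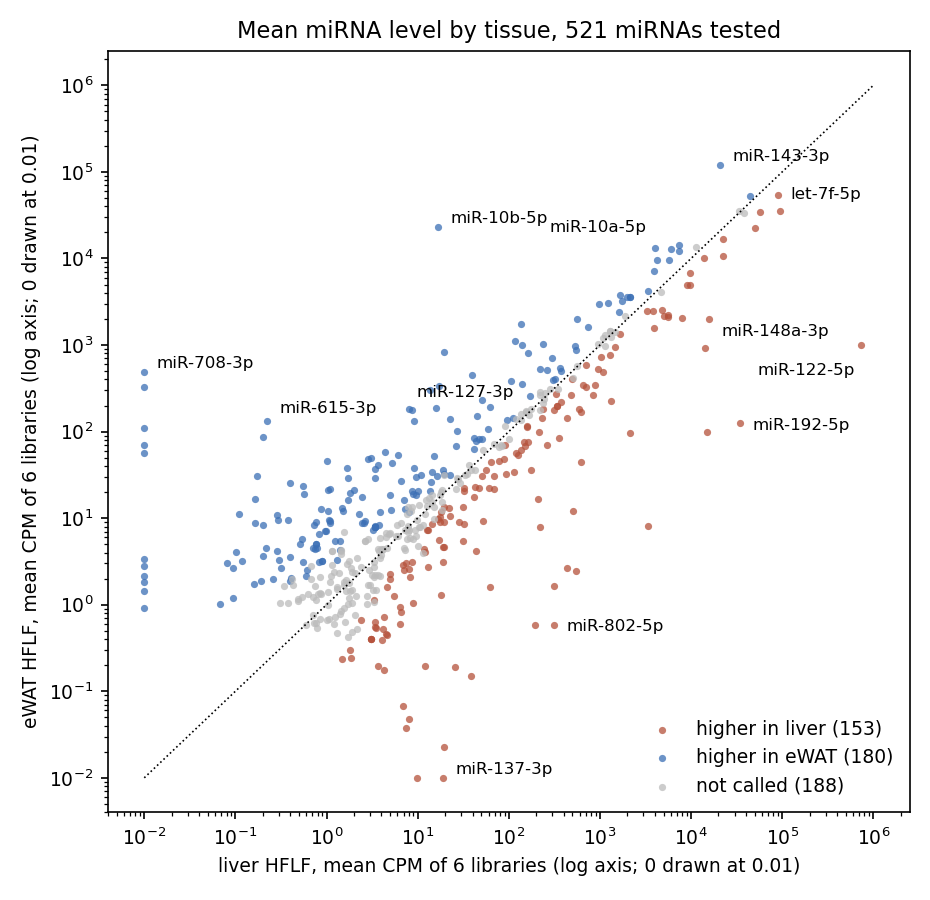
Mean TMM-scaled CPM of 6 liver HFLF libraries (x axis, log) against 6 eWAT HFLF libraries (y axis, log) for the 521 miRNAs tested, with means of 0 drawn at 0.01. The dotted line marks equal levels; 153 miRNAs are called higher in liver, 180 higher in eWAT and 188 are grey. miR-122-5p lies far to the right at a liver mean of 741710 CPM, and miR-10b-5p far above the line at 16.6 CPM in liver and 22889 CPM in eWAT.

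miR-122-5p, the hepatocyte miRNA tied to cholesterol and lipid metabolism, was the leading miRNA of liver. Its level was 639615, 754915 and 789945 CPM (lowest, median and highest library) in liver, against 476, 903 and 1973 CPM in eWAT, where replicates differed more than in liver. It took 45.6% to 55.4% of a liver library and 0.0722% to 0.309% of an eWAT library, and its log2 fold change was 9.55 ± 0.40 (SE; edgeR adjusted p = 1.8e-11). Its 3p strand from the same hairpin averaged 3406 ± 471 CPM in liver and 8.17 ± 4.50 CPM in eWAT (SD, n = 6 each), a log2 fold change of 8.71. Next to miR-192-5p of the same library, miR-122-5p stood at a ratio of 17.5 to 28.7 in liver and of 4.10 to 12.8 in eWAT. The source of the few reads of these miRNAs in eWAT libraries was not tested.

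miR-192-5p and miR-194-5p, made from a joint transcript in liver, gut and kidney, were both far higher in liver. miR-192-5p stood at 27534, 33964 and 44559 CPM in liver (lowest, median and highest) and at 80.8, 124 and 154 CPM in eWAT, with a log2 fold change of 8.12 ± 0.20. miR-194-5p stood at 10966, 15393 and 20307 CPM in liver and 78.6, 95.01 and 129 CPM in eWAT, at 7.26 ± 0.20. On GRCm38 the hairpins Mir194-2 and Mir192 lie side by side on the plus strand of chromosome 19, at 6264643 to 6264728 and 6264844 to 6264932, with no host gene annotated on that strand, and all 4 strands tested from this pair were higher in liver. The second copy of the pair, on chromosome 1, holds miR-215, whose 5p strand has the seed of miR-192-5p and differs from it at 3 positions. miR-215-5p was low in both tissues, 12.9 to 36.6 CPM in liver and 3.40 to 15.9 CPM in eWAT, and overlapped between them (log2 fold change 1.66 ± 0.37, adjusted p = 0.00083). Reads of miR-194-5p cannot be assigned to one of its copies.

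Other liver miRNAs spanned a wide range of levels. miR-802-5p, known to increase in livers of obese mice, stood at 184, 310 and 471 CPM in liver and at 0, 0.485 and 1.604 CPM in eWAT, a log2 fold change of 9.11 ± 0.59. Its hairpin lies on chromosome 16 at 93369720 to 93369816, outside any annotated host. miR-31-5p averaged 546 ± 89.5 CPM in liver and 2.46 ± 1.47 CPM in eWAT, at 7.78 ± 0.36, and both strands of miR-1948 were at 7.57 or more. miR-455-3p, from an intron of the collagen gene Col27a1 (chromosome 4, 63256851 to 63256932), stood at 1944, 2036 and 2750 CPM in liver and 77.5, 92.7 and 124 CPM in eWAT, at 4.48 ± 0.15. Among the most abundant miRNAs, miR-21a-5p, known from fibrosis and inflammation, stood at 58221, 93218 and 132921 CPM in liver and 30843, 34916 and 39435 CPM in eWAT, at 1.44 ± 0.16, with no overlap. Its share of the library overlapped, at 4.08% to 9.47% in liver and 4.50% to 6.07% in eWAT.

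**Figure D2:**
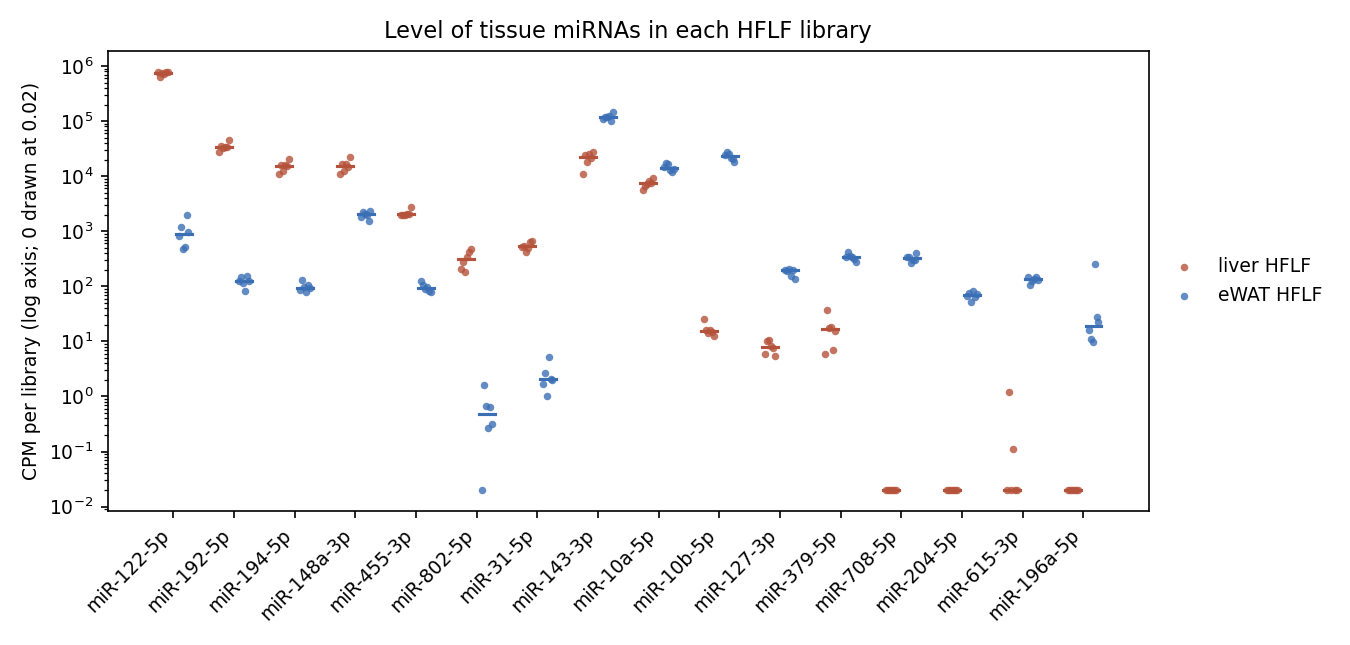
CPM of 16 miRNAs in each HFLF library on a log axis, liver red and eWAT blue, with a bar at the median of 6 libraries and values of 0 drawn at 0.02. The first 7 miRNAs are higher in all liver libraries and the other 9 in all eWAT libraries; miR-196a-5p has 1 eWAT library at 253 CPM and 5 between 9.75 and 27.8 CPM.

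The hepatocyte list, of miRNAs known from hepatocytes or from lipid metabolism in liver, had 18 members tested, of which 17 were higher in liver and 17 passed the fold, 0 were higher in eWAT, and miR-215-3p was not called. The list's median log2 fold change was 6.12, beside -0.14 over all miRNAs tested. The list was chosen with earlier results of these data known, so its counts and median describe its members and test nothing. Of all miRNAs tested, 29.4% were higher in liver, and 14.4% were so past the fold. Together its members took 52.5% to 60.2% of the counts in liver and 0.756% to 1.09% in eWAT. On plain totals 14 members kept a call, with a median of 4.95. Its lower end held miR-33-5p, from an intron of Srebf2 and a repressor of cholesterol export, at 2.19 to 6.79 CPM in liver and 0 to 1.47 CPM in eWAT (2.55 ± 0.70), and miR-101a-3p, at 1.33 ± 0.17.

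miR-143-3p led eWAT as miR-122-5p led liver. This miRNA of smooth muscle, which also increases as adipocytes differentiate, stood at 11006, 22390 and 27049 CPM in liver and at 100712, 119264 and 144876 CPM in eWAT. Its share was 0.771% to 1.70% in liver and 15.8% to 19.98% in eWAT, with a log2 fold change of -2.51 ± 0.18 (adjusted p = 2.7e-09). miR-145a-5p, from the same cluster, averaged 236 ± 32.3 CPM in liver and 1031 ± 86.2 CPM in eWAT, at -2.13 ± 0.11. Fewer cells of a type and less of a miRNA per cell cannot be told apart in such whole-tissue RNA, here or in any result below.

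miRNAs embedded in the HOX clusters, whose genes set position along the body axis, had the median farthest from 0 of the 20 lists. miR-10b-5p stood at 12.5, 15.6 and 25.6 CPM in liver and 18430, 22774 and 27898 CPM in eWAT, a log2 fold change of -10.43 ± 0.23 (adjusted p = 3e-16). miR-10a-5p has the same seed and differs from miR-10b-5p at 1 of 23 bases, yet it stood at 5520, 7423 and 9148 CPM in liver and 11855, 14125 and 17284 CPM in eWAT, at -0.97 ± 0.13. Within a library, miR-10b-5p reached 0.136% to 0.464% of the miR-10a-5p count in liver and 1.39 to 1.70 times that count in eWAT. Reads of a sequence with 1 differing base can be counted under its relative, so the small miR-10b-5p level of liver is uncertain; the 3p strand of miR-10b had 0 counts in all 6 liver libraries. The hairpin Mir10b lies on chromosome 2 at 74726070 to 74726137, in an intron of Hoxd4, and Mir10a on chromosome 11 at 96317165 to 96317274.

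All 7 HOX-embedded strands tested were higher in eWAT (median log2 fold change -9.42, also with strands at 0 in liver set to their bound), and on plain totals 7 of 7 were too. Over all miRNAs tested, the share higher in eWAT was 34.5% under TMM. miR-615-3p, in an intron of Hoxc5 (chromosome 15, 103014910 to 103015001), had 0 counts in 4 liver libraries and at most 1.22 CPM, against 107, 134 and 150 CPM in eWAT. miR-196a-5p had 0 counts in all 6 liver libraries and 9.75, 19.4 and 253 CPM in eWAT, the last in replicate 4, which was also the highest in miR-196b-5p, at 151 CPM against 2.26 to 12.8 CPM in the other 5. Without eWAT replicate 4 miR-196a-5p stayed called (adjusted p = 1.1e-07), and so did miR-196b-5p, whose log2 fold change of -7.16 moved to -5.08. The list as a whole took 0.392% to 0.550% of the counts in liver and 4.42% to 6.93% in eWAT.

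The imprinted Dlk1-Dio3 domain, whose miRNAs are made from the maternal chromosome 12 in the mouse, gave the most strands higher in eWAT of the 20 lists. It was also the list with the most strands tested, 34. Of these, 32 were higher in eWAT, 31 of them past the fold, beside 34.5% and 21.9% of all miRNAs tested. In liver 0 were higher, and miR-154-5p and miR-376b-3p were not called. The median log2 fold change of the list was -4.21. miR-127-3p, which lies antisense to the retrotransposon-like gene Rtl1, stood at 5.396, 7.93 and 10.6 CPM in liver and 135, 194 and 210 CPM in eWAT (-4.51 ± 0.20). miR-379-5p, first in the long cluster, stood at 6.03, 16.6 and 37.5 CPM in liver and 272, 340 and 427 CPM in eWAT (-4.32 ± 0.38). miR-434-3p was at -4.34, miR-411-5p at -3.89 and miR-541-5p at -3.58. By position, the run of hairpins on chromosome 12 from 109709060 to 109743795 had 35 strands tested and 33 higher in eWAT, and that from 109571990 to 109595388 had 13 of 13. Summed, the list's strands reached 50.1 to 148 CPM in liver and 1071 to 1650 CPM in eWAT.

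A second imprinted locus gave the same side. miR-335-5p, from an intron of the paternally expressed gene Mest (chromosome 6, 30741299 to 30741396) and known to rise in fat of obese mice, stood at 83.9, 143 and 169 CPM in liver and 1222, 1782 and 2342 CPM in eWAT (-3.66 ± 0.21). The Sfmbt2 cluster, expressed from the paternal chromosome 2 in mouse placenta, was low in both tissues, with a summed level of 24.1 to 49.9 CPM in liver and 65.8 to 99.0 CPM in eWAT. Of its 15 strands tested, 10 were higher in eWAT, miR-466i-5p was higher in liver under TMM but not called so on plain totals, and 4 were not called, and its members share long stretches of sequence, so single members are uncertain. Of all miRNAs tested, 34.5% were higher in eWAT.

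Some miRNAs had counts in all libraries of one tissue and none in the other. miR-708, from an intron of Tenm4 (chromosome 7, 96249424 to 96249532), had 0 counts in all liver libraries, against 403 to 573 CPM of its 3p strand and 266 to 411 CPM of its 5p strand in eWAT. Against a floor of 3 counts over the 6 libraries of a tissue, miR-708-3p was at least 8123-fold and miR-708-5p at least 5435-fold lower in liver. miR-10b-3p was at least 1808-fold lower in liver, and miR-204-5p, from an intron of Trpm3 and known to favour adipocyte formation, at least 1149-fold, at 51.0 to 83.7 CPM in eWAT. In the other direction, miR-137-3p, a neuronal miRNA, had 14.04 to 25.3 CPM in liver and 0 counts in eWAT, at least 881-fold higher in liver. miR-292b-5p, of a cluster known from embryonic stem cells, had 6.33 to 16.01 CPM in liver and 0 counts in eWAT, at least 450-fold higher. Over the 521 tested, 11 miRNAs were at 0 in all liver libraries and 2 at 0 in all eWAT libraries; these floors cover counting error only.

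The adipocyte list, of miRNAs known from fat cell formation, was split. Of 22 strands tested 14 were higher in eWAT, 6 were higher in liver and 2 were not called, with a median of -1.21; on plain totals 19 were higher in eWAT and 1 in liver. Under TMM the shares over all miRNAs tested were 34.5% higher in eWAT and 29.4% higher in liver. miR-146b-5p averaged 116 ± 26.1 CPM in liver and 1122 ± 382 CPM in eWAT (-3.27 ± 0.25). Those higher in liver were miR-107-3p, miR-26b-5p, miR-27b-3p, miR-30c-5p and both strands of miR-378a, of which miR-107-3p alone kept a call for liver on plain totals. miR-378a-3p, from an intron of Ppargc1b, overlapped between the tissues at 2871 to 3958 CPM in liver and 1773 to 3066 CPM in eWAT (0.41 ± 0.13).

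**Figure D3:**
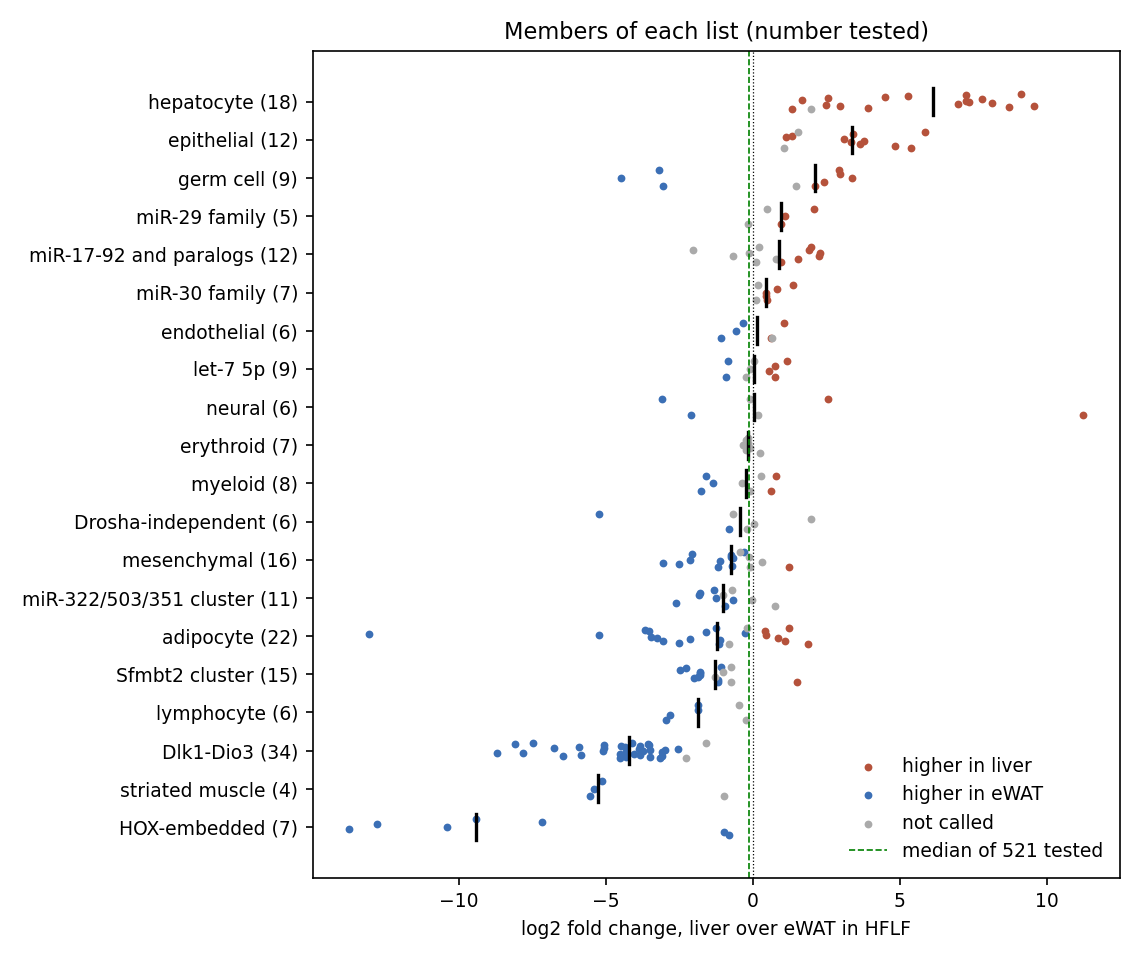
Log2 fold change, liver over eWAT, of each tested member of 20 lists, ordered by the list's median (black bar), with the number tested in brackets. Red members are called higher in liver, blue higher in eWAT and grey not called; the green dashed line is the median of all 521 miRNAs, -0.14. Medians run from 6.12 for the hepatocyte list to -9.42 for HOX-embedded miRNAs.

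Some related miRNAs with a shared seed differed in opposite directions under TMM scaling. Seeds were compared for the 442 tested miRNAs with a RefSeq sequence, which leaves out miR-23b-3p among others. Among the 46 seeds held by 2 or more of these, 9 had members called on both sides, though 0 seeds did so past the fold in both. Of all miRNAs tested, 29.4% were higher in liver and 34.5% higher in eWAT. On plain totals liver members of several of the 9 fell below 0, among them miR-26b-5p (-0.10), miR-28a-5p (-0.053) and miR-221-3p (-0.57). miR-107-3p kept its call for liver there. Seeds were not counted on that scale. The ratio of relatives within a library needs no scaling between tissues, so these ratios are given per library as a description; the pairs were chosen after their values were seen. miR-27b-3p exceeded miR-27a-3p by 7.80 to 11.2 times in liver and by 1.53 to 1.91 times in eWAT. The pair, which restrains adipocyte formation through Pparg and differs at 1 base, averaged 8946 ± 2015 and 979 ± 253 CPM in liver and 4975 ± 339 and 2984 ± 234 CPM in eWAT. miR-27b-3p had a log2 fold change of 0.85 ± 0.13, which turned to -0.34 on plain totals, and miR-27a-3p one of -1.61 ± 0.16. The whole clusters followed them: the strands of miR-23b, miR-27b and miR-24-1 on chromosome 13 (63300484 to 63301275) were higher in liver, 5 of 5, and those of miR-23a, miR-27a and miR-24-2 on chromosome 8 (84208518 to 84208921) higher in eWAT, 6 of 6. Reads of relatives that differ at 1 base may be shared. The strands counted for chromosome 8 include miR-24-3p, which is named for both miR-24-1 and miR-24-2, so its reads cannot be assigned to one of these clusters.

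miR-103-3p and miR-107-3p, from introns of pantothenate kinase genes (Pank2 among those of miR-103, and Pank1 for miR-107), act on insulin sensitivity in liver and fat. miR-107-3p stood at 555, 600 and 687 CPM in liver and 146, 172 and 191 CPM in eWAT (1.87 ± 0.11), while miR-103-3p stood at 3600, 4090 and 5378 CPM in liver and 8125, 9216 and 11976 CPM in eWAT (-1.16 ± 0.13). The ratio of miR-107-3p to miR-103-3p was 0.128 to 0.154 in liver and 0.0159 to 0.0205 in eWAT, although their sequences differ at 1 base.

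miR-148a-3p, which lowers the LDL receptor of hepatocytes, stood at 10994, 15439 and 22772 CPM in liver and 1511, 2042 and 2345 CPM in eWAT (2.96 ± 0.17). Its seed partner miR-152-3p, from an intron of Copz2, was on the other side, at 544 ± 120 CPM in liver and 878 ± 88.6 CPM in eWAT (-0.69 ± 0.14). The ratio of the pair was 24.4 to 32.6 in liver and 1.98 to 2.81 in eWAT. miR-101b-3p, whose RefSeq sequence starts 1 base before that of miR-101a-3p and so has a shifted seed, exceeded miR-101a-3p by 2.18 to 2.80 times in liver and was 0.388 to 0.446 of it in eWAT. miR-26b-5p was 0.464 to 0.544 of miR-26a-5p in liver and 0.189 to 0.214 of it in eWAT. miR-28a-5p, the seed partner of miR-708-5p, averaged 710 ± 76.9 CPM in liver, where miR-708-5p was not seen, and 325 ± 19.3 CPM in eWAT, near the 327 ± 50.5 CPM of miR-708-5p there.

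**Figure D4:**
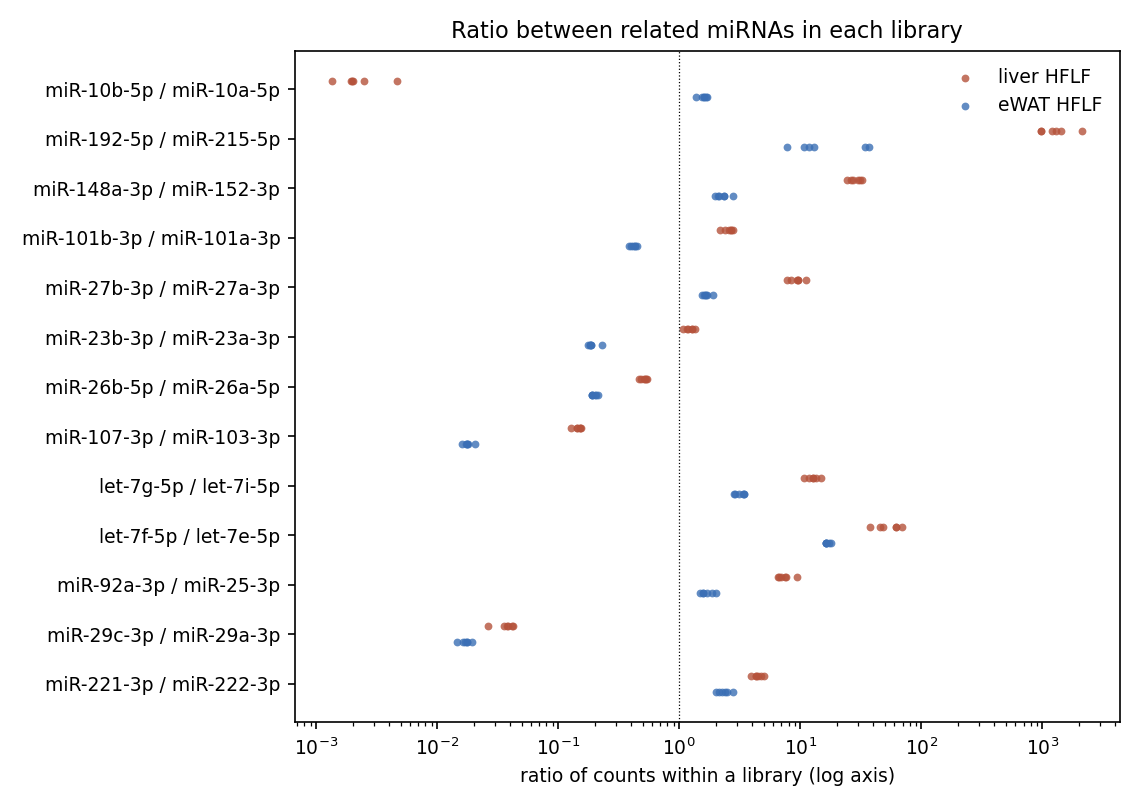
Ratio of 13 pairs of related miRNAs within each library on a log axis, liver in red above eWAT in blue. The ratios of liver and eWAT libraries do not overlap for any pair drawn, from miR-10b-5p over miR-10a-5p, at 0.00136 to 0.00464 in liver and 1.39 to 1.70 in eWAT, to miR-221-3p over miR-222-3p, at 3.92 to 5.01 in liver and 2.01 to 2.81 in eWAT.

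let-7, a family that restrains growth and insulin signalling and is named in the title of the series, did not move as a block. Of 9 strands of its 5p list, let-7a-5p, let-7d-5p, let-7f-5p and let-7g-5p were higher in liver, let-7e-5p and let-7i-5p higher in eWAT, and let-7b-5p, let-7c-5p and miR-98-5p not called, with a median of 0.04. Beside these, 29.4% of all miRNAs tested were higher in liver and 34.5% higher in eWAT. let-7f-5p, the highest of the 9, stood at 78812, 90607 and 102450 CPM in liver and 48632, 54065 and 62036 CPM in eWAT (0.73 ± 0.10). let-7g-5p averaged 50163 ± 4977 CPM in liver and 22554 ± 1734 CPM in eWAT (1.15 ± 0.10), while let-7i-5p, which differs from it at 2 bases, averaged 3971 ± 503.4 and 7105 ± 494 CPM (-0.84 ± 0.10). On plain totals 0 members were called higher in liver and 8 were called higher in eWAT, and the family took 15.98% to 18.4% of the counts in liver and 24.4% to 29.9% in eWAT. The ratio of let-7g-5p to let-7i-5p, free of that choice, was 10.7 to 14.9 in liver and 2.85 to 3.45 in eWAT, and that of let-7f-5p to let-7e-5p was 37.8 to 69.2 in liver and 16.2 to 18.0 in eWAT. let-7e lies with miR-99b and miR-125a on chromosome 17 (17830188 to 17830879), where 6 of 6 strands tested were higher in eWAT. Members that differ at 1 base may share reads.

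The miR-30, miR-29 and miR-17-92 families had members called higher in liver and none higher in eWAT under TMM scaling. Under that scaling 29.4% of all miRNAs tested were higher in liver and 34.5% higher in eWAT. Of 7 miR-30 strands, which are rich in many tissues, 5 were higher in liver and 0 in eWAT (median 0.45), where plain totals gave 0 and 6. Of 5 miR-29 strands, which act on collagen messengers, 3 were higher in liver and 0 in eWAT (median 0.95), with miR-29c-3p at 359 ± 94.2 CPM in liver and 84.4 ± 11.05 CPM in eWAT (2.09 ± 0.17); on plain totals 1 kept its call. Of 12 strands of the miR-17-92 cluster and its paralogs, tied to cell division, 6 were higher in liver and 0 in eWAT (median 0.87), where plain totals gave 5 and 4. miR-17-92 holds a copy of each of the 6, though miR-19b-3p and miR-92a-3p have another copy in the paralog cluster of chromosome X and their reads cannot be assigned to one. miR-92a-3p averaged 8024 ± 485 CPM in liver and 2033 ± 61.8 CPM in eWAT (1.98 ± 0.09), while miR-25-3p, its seed partner from the paralog cluster on chromosome 5, averaged 1090 ± 135 and 1210 ± 134 CPM (-0.15 ± 0.11, not called). The miR-322, miR-503 and miR-351 cluster of chromosome X had 11 strands tested, 7 higher in eWAT, 0 in liver and 4 not called (median -1.02), and miR-322-5p averaged 22.6 ± 6.54 CPM in liver and 139 ± 23.99 CPM in eWAT (-2.62 ± 0.19). Of 6 strands made without Drosha, 2 were higher in eWAT, a share near that of all miRNAs tested, and 4 were not called.

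Called strands of a cluster mostly shared a side under TMM scaling. With hairpins at most 10000 bases apart on a strand joined, 40 clusters had tested members and 28 had 2 or more called; in 14 of these the called strands were all higher in liver, in 12 all higher in eWAT, and in 2, both on chromosome X, on both sides. Under that scaling 29.4% of all miRNAs tested were higher in liver and 34.5% higher in eWAT. Plain totals kept all 180 calls for eWAT but 57 of the 153 for liver. Clusters were not counted on that scale. Strands of a cluster may share a transcript and are not independent. The called strands can also be both strands of a single hairpin, as for let-7f-2, whose neighbour miR-98 was not called. These counts are therefore not counts of neighbouring hairpins that share a side.

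miRNAs of other cell types differed by list, and their part in the results above was not tested. Over all miRNAs tested, 34.5% were higher in eWAT and 29.4% higher in liver. Stromal and smooth muscle miRNAs, a list that shares miR-143 and miR-145a with the adipocyte list, had 11 of 16 strands higher in eWAT and miR-22-3p higher in liver (median -0.74; 15 and 0 on plain totals), and took 1.84% to 3.35% of the counts in liver and 20.3% to 24.2% in eWAT. Most of the eWAT share was miR-143-3p, which alone took 0.771% to 1.70% in liver and 15.8% to 19.98% in eWAT. miR-199a-3p, a fibroblast miRNA whose reads are shared with the identical miR-199b-3p, stood at 917 CPM in liver replicate 1 and 2126 to 2662 CPM in the other liver libraries, against 2956 to 4343 CPM in eWAT. Endothelial miRNAs had 2 strands higher in liver, both of miR-221, 3 higher in eWAT and 1 not called of 6 (median 0.14; 0 higher in liver and 4 in eWAT on plain totals), with summed levels of 7762 to 12141 CPM in liver and 14625 to 19622 CPM in eWAT; the defining miR-126a-3p averaged 6020 ± 1209 CPM in liver and 12878 ± 1569 CPM in eWAT (-1.10 ± 0.13).

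Leukocyte miRNAs were described by a lymphocyte and a myeloid list, beside 34.5% of all tested miRNAs higher in eWAT and 29.4% higher in liver. The lymphocyte list had 4 of 6 strands higher in eWAT and 0 in liver (median -1.86), summing to 691 to 1147 CPM in liver and 3241 to 3932 CPM in eWAT, and miR-150-5p, of mature lymphocytes, stood at 107, 145 and 166 CPM in liver and 844, 978 and 1153 CPM in eWAT (-2.83 ± 0.13). The myeloid list had 3 of 8 higher in eWAT, 2 in liver and 3 not called (median -0.25; 0 in liver and 7 in eWAT on plain totals), shares near those of all miRNAs, with both strands of the macrophage miRNA miR-511 as the 2 in liver, summing to 758 to 1301 CPM in liver and 1139 to 1415 CPM in eWAT; miR-223-3p, of neutrophils, averaged 139 ± 39.7 CPM in liver and 358 ± 44.1 CPM in eWAT (-1.37 ± 0.17). Erythroid miRNAs, among them miR-451a, had 0 of 7 strands called (median -0.17) and summed to 2631 to 4808 CPM in liver and 2600 to 5615 CPM in eWAT, while plain totals gave 6 of 7 higher in eWAT. Shares of miR-486a-5p and miR-486b-5p were near equal, at 0.0524% to 0.114% and 0.0525% to 0.115% in liver, and 0.138% to 0.284% and 0.138% to 0.286% in eWAT. They may hold the same reads, so these sums may count reads more than once.

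Epithelial miRNAs were mostly higher in liver. The share of all miRNAs tested that were higher in liver was 29.4%, and 14.4% past the fold. Of 12 strands tested, 10 were higher in liver, 9 past the fold, and miR-205-5p and miR-375-3p were not called (median 3.36); plain totals kept 7, and the sums were 3827 to 8389 CPM in liver and 1403 to 2123 CPM in eWAT. The largest part of the sums was miR-203-3p (log2 fold change 1.32), at 0.201% to 0.331% of a liver library and 0.185% to 0.278% of an eWAT library. The list's share of the counts overlapped, at 0.268% to 0.497% in liver and 0.205% to 0.293% in eWAT. miR-182-5p, of a sensory and epithelial cluster, stood at 193, 415 and 1109 CPM in liver, the last in replicate 6, and 7.89, 12.1 and 15.5 CPM in eWAT (5.39 ± 0.38). The cluster of miR-200b, miR-200a and miR-429 on chromosome 4 (156053905 to 156055750), which keeps epithelial cells from becoming mesenchymal, had 5 of 5 strands higher in liver, with miR-200b-3p at 615 ± 188 CPM in liver and 44.8 ± 13.99 CPM in eWAT (3.78 ± 0.28). miR-200c-3p, from another cluster, averaged 22.9 ± 2.60 CPM in liver and 10.6 ± 4.28 CPM in eWAT (1.12 ± 0.25), and turned to -0.06 on plain totals.

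Germ cell miRNAs were low in both tissues, and striated muscle miRNAs were low in liver. Across all miRNAs tested, 29.4% were higher in liver and 34.5% higher in eWAT. Striated muscle miRNAs had 3 of 4 strands higher in eWAT (median -5.28) with sums of 13.8 to 36.4 CPM in liver and 313 to 1430 CPM in eWAT, led by miR-1a-3p at 9.02, 19.2 and 33.8 CPM in liver and 278, 845 and 1335 CPM in eWAT. Germ cell and epididymis miRNAs had 5 of 9 strands higher in liver and 3 higher in eWAT (median 2.10), with sums of 17.8 to 46.7 CPM in liver and 19.96 to 58.5 CPM in eWAT. The 3 higher in eWAT were strands of miR-34b and miR-34c, which multiciliated and germ cells hold, with miR-34c-5p at 0 to 3.99 CPM in liver and 9.76 to 33.6 CPM in eWAT. The 5 higher in liver came from the testis cluster of chromosome X (66796805 to 66829280), where 7 of 8 strands tested were higher in liver at a few CPM; 0 of the list's strands were called higher in liver on plain totals. Neural miRNAs had 2 of 6 higher in liver, miR-137-3p and miR-7a-5p, and 2 higher in eWAT, both strands of miR-9 (median 0.03), with sums of 1146 to 2104 CPM in liver and 426 to 521 CPM in eWAT.

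The level of a miRNA set how firm its value was. The median coefficient of variation between replicates was 72.1% in liver and 42.8% in eWAT for the 216 miRNAs under 10 CPM in the higher tissue, and 17.7% in liver and 12.2% in eWAT for the 22 at 10000 CPM or more. Of those 22, 12 were higher in liver, 7 higher in eWAT, and 6 and 3 of these passed the fold. The shares over all 521 were 29.4% and 34.5%, and 14.4% and 21.9% past the fold. The median log2 fold change of the 22 was 0.45 under TMM, and plain totals shifted the median of all 521 by -1.18. The nearest to level among miRNAs over 1000 CPM in both tissues were miR-98-5p (0.04 ± 0.10), miR-30a-3p (0.09 ± 0.13), let-7c-5p (-0.10 ± 0.11), miR-25-3p (-0.15 ± 0.11) and miR-486a-5p (-0.17 ± 0.20), and plain totals shift all of them by about -1.18.

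The choice of strand was compared apart from the level. For 110 hairpins with a mean of at least 10 counts of both strands in both tissues, the log2 ratio of 5p to 3p counts within a library was compared, which needs no scaling. It differed for 33 (30%; limma, adjusted p under 0.05), 17 with more 5p in liver (15.5%) and 16 with more 3p in liver (14.5%), and 9 differed by over 1 on the log2 scale. miR-322 was the farthest among hairpins with at least 100 counts: its 5p share was 4.28% to 11.2% in liver and 18.9% to 23.8% in eWAT, a difference of -1.67 ± 0.23 (adjusted p = 0.00033). miR-340 gave 5p shares of 82.5% to 89.7% in liver and 68.7% to 75.5% in eWAT (1.30 ± 0.17). miR-145a was at 22.5% to 28.0% in liver and 36.2% to 41.2% in eWAT (-0.99 ± 0.11). miR-199a, whose 3p strand is shared with miR-199b, was at 6.97% to 10.3% in liver and 3.91% to 5.22% in eWAT (1.03 ± 0.13). miR-199b was called the other way, at 0.275% to 0.578% in liver and 0.856% to 1.33% in eWAT (-1.41 ± 0.20). Their 3p reads cannot be told apart, so these 2 ratios do not give the strand choice of a single hairpin. For miR-122 the 5p share was 99.5% to 99.6% in liver and 99.0% to 99.3% in eWAT (0.83 ± 0.14). The leading strand differed between the tissues for 2 hairpins, miR-32, which was called (adjusted p = 0.038), with overlapping 5p shares of 25.4% to 60.2% in liver and 46.0% to 72.6% in eWAT (means 40.6% and 59.1%), and miR-345, which was not.

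**Figure D5:**
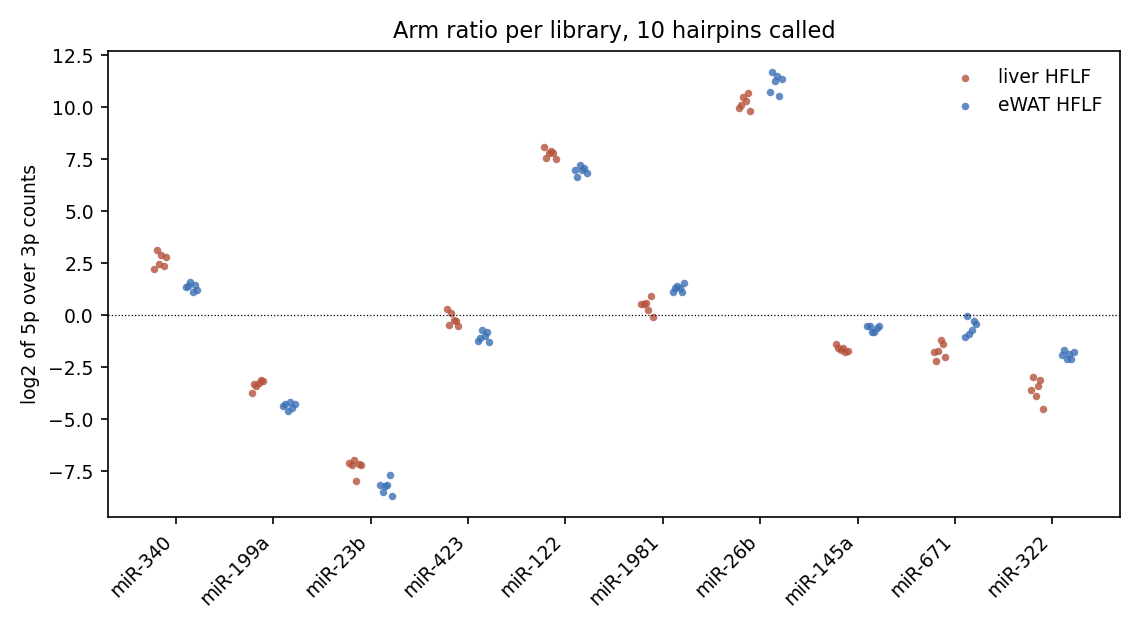
Log2 ratio of 5p over 3p counts in each library for the 10 hairpins named by the rule, 5 with relatively more 5p in liver on the left and 5 with more 3p in liver on the right, liver in red and eWAT in blue. Values above 0 mean that the 5p strand leads; miR-322 differs most, at a mean of -3.57 in liver and -1.90 in eWAT.

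The tissue difference of HFLF was then set against that of the groups LF and HF, over all 36 libraries. Against HF 0 of 681 miRNAs differed (0%; edgeR, 58 at an unadjusted p under 0.05, and DESeq2 called 1, miR-409-5p), and the smallest adjusted p was 0.079, for miR-409-5p of the Dlk1-Dio3 domain. Against LF 13 differed (1.91%), 11 with a tissue difference shifted towards liver in HFLF and both strands of miR-708 shifted towards eWAT. The 11 were miR-200a-3p, both strands of miR-200b, miR-200c-3p, miR-141-3p, miR-429-3p, miR-96-5p, miR-182-5p, miR-183-5p, miR-205-5p and miR-375-3p, all of the epithelial list. In the same fit miR-200b-3p averaged 596 ± 163 CPM in liver HFLF and 45.3 ± 14.04 CPM in eWAT HFLF, and 470 ± 210 CPM in liver LF and 1722 ± 2683 CPM in eWAT LF, where libraries ran from 29.0 to 6190 CPM. Without eWAT LF replicates 1 and 4, 0 of 746 miRNAs differed, and the log2 difference of miR-200b-3p was 0.58, against 5.59 with all libraries. miR-708-3p had 0 counts in liver HFLF and 0 to 1.05 CPM in liver LF, so its difference rests on counts near 0.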

How the data were processed

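Small RNA was sequenced from liver and eWAT; the NEXTFLEX Small RNA-seq Kit v3 took 1 ug of TRI reagent RNA, per the labels' protocols. Per the submitters' processing notes, cutadapt, Bowtie and GRCm38.p6 were used; tool settings were not given in the sources used here. Each line of the deposited table names a mature miRNA and a precursor and holds raw read counts and the authors' CPM, which equals the count over the column total times 1000000, within 0.01 in 100% of values. Column letters were read as liver or eWAT (L, W) and LF, HF or HFLF (C, H, R). For a mature miRNA with several precursors the line with the highest total was used, so loci of one mature sequence are not told apart.

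The 12 libraries were fitted in R 4.3.3 with edgeR 4.0.16 (TMM, filterByExpr with a minimum count of 10 and total of 15, robust quasi-likelihood test, Benjamini-Hochberg adjusted p under 0.05; glmTreat at a log2 fold of 1). Strand ratios were tested with limma 3.58.1 on log2 counts after adding 0.5. Tissue differences were compared between groups as interaction contrasts over all 36 libraries. The steps were tested on simulated data. Totals ran from 9198584 to 18152684 counts, and replicates differed by 97.0 to 997 in chi-square per degree of freedom, well beyond counting error.

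Named miRNAs were the 10 highest per tissue, the 10 largest called changes per direction with at least 100 CPM and no overlap, the 5 nearest to level, up to 4 per list, the 5 hairpins per direction, up to 5 absent per tissue and 5 per interaction; relatives and a few others were named after their values were seen. Members and lists were chosen with earlier results of these data known. Hairpin positions come from GENCODE vM21 (492 of 521 tested matched) and sequences from RefSeq (442 of 521); those on chromosome 18 are not shown. Alternatives were other scalings, no filter, summed lines, all 36 libraries, a replicate block, DESeq2 1.42.0, limma and leaving out each library.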

Additional observations from a re-analysis of the deposited data

Results flagged for a closer look

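Among 308 groups of 6 libraries, the named miRNAs and list sums in each tissue, 21 had a library far from the others, with a gap to the next one past Dixon's 95% critical share of the range; chance flags about 1 in 20 such groups. In liver, replicate 6 was the high library for 7 of them beyond a lone count of miR-196b-5p (1.02 CPM, the others at 0): miR-182-5p (1109 CPM, others 193 to 529), miR-183-5p (471, others 119 to 220), miR-96-5p (31.8, others 3.35 to 11.95), miR-20a-5p (377, others 218 to 259), miR-322-3p (371, others 203 to 265), miR-351-5p (209.6, others 167 to 175) and miR-455-3p (2750, others 1944 to 2086). It was also the deepest liver library, with 18152684 counts, and had the lowest TMM factor, 0.592. Liver replicate 1, which stands apart on the second principal component, was high in miR-10b-5p (25.6 CPM, others 12.5 to 16.3) and low in miR-199a-3p (917 CPM, others 2126 to 2662). Liver replicate 3 was high in miR-34b-3p (3.99 CPM, others 0 to 0.850) and replicate 2 in miR-615-3p (1.22 CPM, others 0 to 0.110).

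In eWAT, replicate 4 was far above the rest in miR-196a-5p (253 CPM, others 9.75 to 27.8) and miR-196b-5p (151 CPM, others 2.26 to 12.8), and high in miR-9-5p (52.4 CPM, others 17.02 to 30.2) and miR-883a-3p (0.309 CPM, others 0 to 0.0899). Replicate 6 was high in miR-126a-5p (2902 CPM, others 2195 to 2458), miR-30a-5p (42826 CPM, others 30083 to 34259) and the miR-30 sum (79649 CPM, others 59051 to 65368). Replicate 5 was high in miR-146a-5p (510.1 CPM, others 362 to 412) and replicate 2 in miR-34c-5p (33.6 CPM, others 9.76 to 17.2).

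The tissue difference of HFLF differed from that of LF for 13 miRNAs (edgeR interaction contrast, adjusted p under 0.05). On the log2 scale the differences were 7.07 for miR-200c-3p, 5.71 for miR-429-3p, 5.51 for miR-200a-3p, 5.59 for miR-200b-3p, 4.83 for miR-200b-5p, 6.91 for miR-141-3p, 4.80 for miR-182-5p, 4.62 for miR-183-5p, 6.44 for miR-96-5p, 7.19 for miR-375-3p, 6.997 for miR-205-5p, -5.49 for miR-708-3p and -5.19 for miR-708-5p. Without eWAT LF replicates 1 and 4 all 13 lost the call, and the 11 positive differences fell to values between 0.07 and 2.68.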

How the results depend on the processing

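The count of 333 called miRNAs ran from 319 with a replicate block to 444 with no filter (391 on plain totals, 339 with RLE factors, 345 with DESeq2, 359 with limma) and from 321 to 359 leaving out each library; those past the fold ran from 186 to 214 leaving out each library and were 193 with the block, 276 on plain totals and 268 with no filter, beside 189 with all settings as reported. The count of hairpins called for strand ratio was 26 to 35 leaving out each library, 25 with a replicate block and 21 at a minimum of 1 count, where 172 hairpins were tested. Against LF, 0 miRNAs were called without eWAT LF replicates 1 and 4 (62 at an unadjusted p under 0.05), 0 with a replicate block (21 unadjusted) and 28 with DESeq2, 12 of them shared; against HF, DESeq2 called 1. Same-numbered liver and eWAT libraries correlated at -0.086 to 0.152 in their deviations from the tissue means and were not taken as pairs.

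Plain totals turned 23 named log2 fold changes: let-7a-5p to -0.43, let-7d-5p -0.62, let-7f-5p -0.44, let-7g-5p -0.024, miR-26b-5p -0.10, miR-27b-3p -0.34, miR-28a-5p -0.053, miR-29a-3p -0.23, miR-29b-3p -0.092, miR-29c-5p -0.72, miR-30a-5p -0.998, miR-30a-3p -1.08, miR-30c-5p -0.74, miR-30d-5p -0.73, miR-93-5p -0.98, miR-98-5p -1.13, miR-128-3p -1.002, miR-146a-5p -0.91, miR-200c-3p -0.055, miR-221-3p -0.57, miR-378a-3p -0.77, miR-484 -1.15 and miR-511-3p -0.56. By construction this scale shifts all by about -1.18. miR-98-5p was at -0.018 with RLE factors, -0.042 with no filter, -0.0060 in the 36-library fit and -0.018 with DESeq2, and miR-484 at -0.023, -0.053, -0.016 and -0.024; miR-351-5p was at 0.032 on summed lines. Leaving out each library, miR-98-5p ran from -0.0092 to 0.11, miR-484 from -0.035 to 0.13, miR-351-5p from -0.074 to 0.039 and let-7c-5p from -0.17 to 0.0023; none of the 4 was called with all libraries. miR-26a-5p, miR-222-3p and miR-511-3p, near the threshold, lost the call without 1 or more libraries.

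Depth limits low miRNAs most, those under 10 CPM; floors cover counting error only.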
